A study of Mus musculus with 16 samples.

Results

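Transcripts of 6 enzymes that oxidise or esterify cholesterol, Cyp46a1, Cyp27a1, Cyp7b1, Ch25h, Hsd3b7 and Soat1, were examined in cerebella of mice lacking Npc1 and of wild-type mice. The genes were found by symbol among the non-control spots of Agilent one-colour mouse arrays, where they were read by 9 of 41174 probes and made up 6 of 27670 named genes. The Npc1-/- group held 4 cerebella of 3-week-old mice homozygous for the mutation of the strain BALB/cNctr-Npc1m1N/J, a germline mutation on a BALB/c background. The wild-type group held 4 cerebella of Npc1+/+ mice of the same age and strain, and all Npc1-/- mice were bred in-house from heterozygous parents. The labels give no sex for any array. The labels name 8 mice for 8 arrays and no treatment. Whole cerebellum was used, so fewer cells of a type and less RNA per cell cannot be told apart.

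The brain makes its own cholesterol and cannot break the sterol ring, so surplus cholesterol leaves as oxysterols or is stored as esters. Cytochrome P450 enzymes and the hydroxylase Ch25h add a hydroxyl group to the side chain, Cyp7b1 and Hsd3b7 modify the ring of the products on the way to bile acids, and Soat1 links cholesterol to a fatty acid. Npc1 carries cholesterol out of lysosomes to the membranes where several of these enzymes sit. Oxysterols bind nuclear liver X receptors and the Insig proteins, and through them set cholesterol export and synthesis.

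Among the 5 genes detected in both genotypes Soat1 had the largest difference, with each Npc1-/- array above each wild-type array on 2 of its 4 probes, and Cyp7b1 was separated in the same way by a smaller step. Ch25h was well above background on 4 of 4 Npc1-/- arrays and on 0 of 4 wild-type arrays. Cyp46a1, Cyp27a1 and Hsd3b7 overlapped between genotypes and had fitted differences within 0.08 log2 units of 0. None of the 6 passed the threshold: limma called 0 of 6 at an adjusted p under 0.05, where 0.767% of the 17983 genes tested were called. At an unadjusted p under 0.05 there were 3 of 6 members, against 7.4% of all genes tested. The groups did not overlap for the same 3 genes, Cyp7b1, Ch25h and Soat1, all with Npc1-/- higher, against 2.96% of all genes in that direction and 4.92% in either. Ch25h passed the filter on dim probes through its Npc1-/- arrays, so it could enter the test in that direction alone and lends the count no weight.

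The probes are shown because the reported difference of each gene rests on 1 oligo of 60 bases. Soat1 had 4 probes, of which the brightest stood for the gene. The Cyp46a1 probe is printed whole, since its 60 bases are spread over chr12:105879275-105881673 of the mm7 build on the plus strand and so cross an intron. The others are given as a stretch of 30 bases, the first 30 except for Cyp7b1, for which the last 30 are given. Capitals mark the hexamer AATAAA, the usual signal for cleavage and polyadenylation, which was found in 2 of the 8 stretches printed.
Cyp46a1: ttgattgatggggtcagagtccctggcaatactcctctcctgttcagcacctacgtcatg
Cyp27a1: tcagatctgttgcaatcatgttccagaact
Cyp7b1: tcacaaaacctgtcataaAATAAAgcagtg
Ch25h: ctatgtatgaaatcgcactggaactgggct
Hsd3b7: ctggctctccttaaggggttatagtttcac
Soat1, A_51_P391754: tactaataatcccaaaatggctcctaaggc
Soat1, A_52_P642167: taagactgcaaactacttagcattcaaaga
Soat1, A_51_P111612: ccaaggggaaAATAAAgattgtattttgta
The Cyp27a1 probe lies at chr1:74975310-74975369 on the plus strand, the Cyp7b1 probe at chr3:17798088-17798147 on the minus strand and the Ch25h probe at chr19:34175232-34175291 on the minus strand, as the files place them in mm7. The Hsd3b7 probe lies at chr7:123900149-123900208 on the plus strand. The files name no exon or untranslated region for these positions, and an mm7 annotation was not used here.

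Detection differed between arrays, from 22182 probes above background on wild-type replicate 2 to 28137 on Npc1-/- replicate 3. Signals are on a log2 scale on which 0 is the 75th percentile of an array's spots. Npc1, the mutated gene, averaged -2.47 ± 0.12 in Npc1-/- and -0.48 ± 0.12 in wild-type cerebella on its brighter probe (SD, n = 4 each). On this probe it was 3.98-fold lower in Npc1-/- (limma adjusted p = 0.00045), which parts the arrays as labelled. The other Npc1 probe was much dimmer, at -7.74 in Npc1-/- and -7.44 in wild-type cerebella, and its groups overlapped. The tissue label was checked on 8 Purkinje cell markers and 7 granule cell markers, and 8 and 7 of them were well above background on at least 4 arrays. Of all 27670 named genes 17983 passed that filter too, so detection alone is a weak check of the tissue. A first principal component with 47.0% of the variance did not separate the genotypes, though its lowest scores were Npc1-/- and its highest wild-type arrays. Npc1-/- replicate 4 and wild-type replicates 3 and 4 lay on the positive side of this component, at 9.71, 73.0 and 23.0. The other 5 arrays lay on its negative side. Members are also given without the 3 positive arrays where that matters, which leaves Npc1-/- replicates 1 to 3 and wild-type replicates 1 and 2. The arrays lay on 4 slides, of which slides 2, 3 and 4 held both genotypes, with 1 wild-type array on each. All values below are from 4 arrays per genotype, which limits their precision.

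Cyp46a1, the neuronal P450 that hydroxylates cholesterol at the side chain for export to the blood, showed no separation of the genotypes. Its signal was -1.33, -1.26, -1.78 and -0.90 in Npc1-/- replicates 1 to 4, and -1.42, -0.97, -1.40 and -1.17 in wild-type replicates 1 to 4. The lowest and the highest of the 8 values were both Npc1-/- arrays, replicates 3 and 4, and the 4 wild-type values lay between them. The means were -1.32 ± 0.36 in Npc1-/- and -1.24 ± 0.21 in wild-type cerebella (SD, n = 4 each), a log2 difference of -0.07 ± 0.19 (SE, limma adjusted p = 0.905). The 95% confidence interval of the difference ran from -0.51 to 0.36. Without Npc1-/- replicate 3 the difference was 0.079, and without wild-type replicate 2 it was 0.015, so its sign rested on single arrays.

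Cyp27a1, the mitochondrial P450 that hydroxylates the end of the sterol side chain and is expressed in many cell types, gave -1.75, -1.67, -2.05 and -1.71 in Npc1-/- and -1.94, -1.82, -1.79 and -1.80 in wild-type cerebella. Npc1-/- replicate 3 was the lowest of the 8 and the other 3 Npc1-/- arrays were the highest, so the groups overlapped. The difference was 0.05 ± 0.11 (SE, limma adjusted p = 0.892), with a 95% confidence interval from -0.20 to 0.29. Scaling moved it across 0, to -0.011 with quantile normalization and -0.061 with scaling on the median of each array.

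Ch25h encodes a hydroxylase of the endoplasmic reticulum that is not a P450 and is known as an interferon-induced gene of macrophages. Its signal was -5.51, -5.48, -4.68 and -5.05 in Npc1-/- replicates 1 to 4, and -6.11, -5.95, -5.92 and -6.20 in wild-type replicates 1 to 4. All Npc1-/- values as recorded lay above all wild-type values, and Npc1-/- replicates 3 and 4 lay above the other 2 Npc1-/- arrays. Since no wild-type array measured Ch25h well above background, a rough lower bound was computed. It was 1.15-fold higher in Npc1-/- cerebella, from means of -5.18 in Npc1-/- and -5.38 in wild-type cerebella. For the bound, the Ch25h signal of a wild-type array was replaced by the lowest detected signal of that array wherever it lay under it, which was so on all 4. That lowest signal was -3.90 on wild-type replicate 2 and -6.04 to -5.74 on the other 3, so replicate 2 holds the bound down. The -3.90 lies above all 4 Npc1-/- values, so the order against that array is not settled. A spot above the lowest detected signal can also be not well above background. Soat1 probe A_52_P642167 was such a spot, at -3.63 on wild-type replicate 2. The bound is thus no guaranteed minimum, and it carries no sampling error. The measured means were -5.18 ± 0.39 in Npc1-/- and -6.05 ± 0.13 in wild-type cerebella (SD, n = 4 each), and the fit gave an adjusted p of 0.114 (limma), which rests on wild-type values without a measured level. With normexp background correction the fitted difference was 0.21 (limma adjusted p = 0.728), against 0.87 from the scanner's own background subtraction. The gene fell below the filter when any 1 Npc1-/- array was left out.

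**Figure D1:**
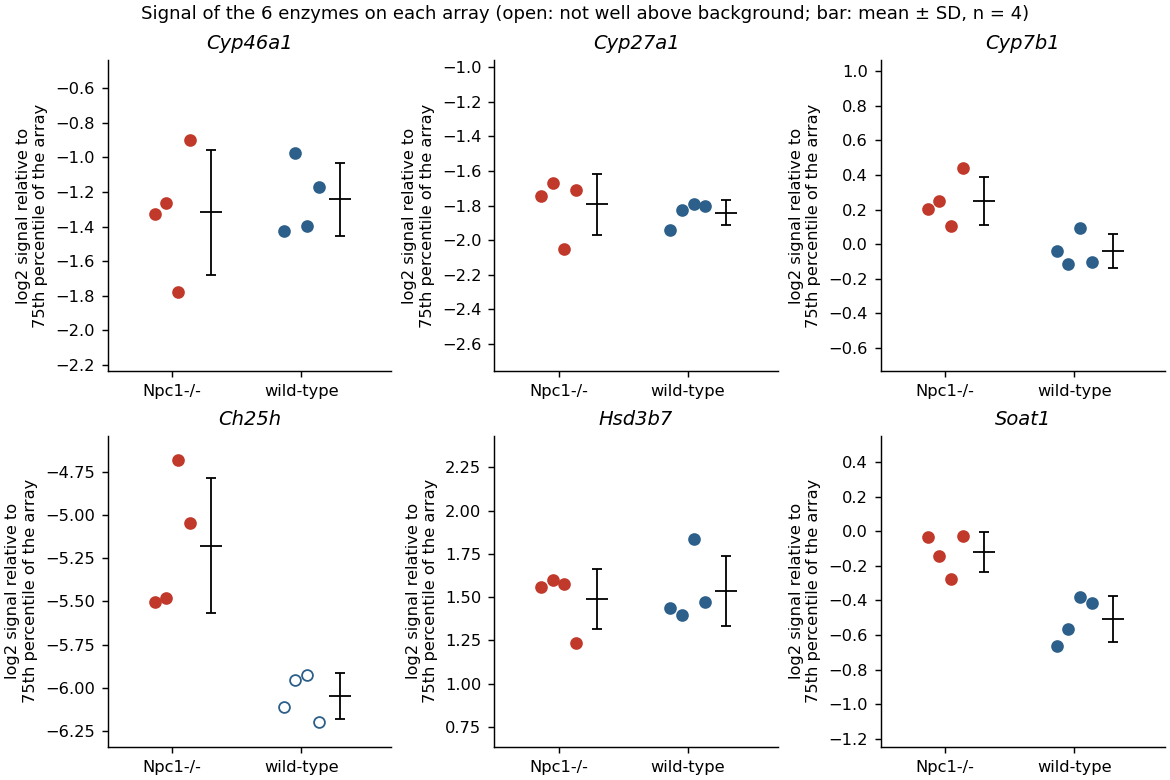
Signal of the 6 enzymes on each array, in log2 units above or below the array's 75th percentile (vertical axes all span the same number of log2 units); points are arrays, Npc1-/- on the left and wild-type on the right, open where the probe was not well above background, and bars are the mean ± SD of 4 arrays. Cyp7b1, Ch25h and Soat1 have all Npc1-/- points above all wild-type points, with Ch25h open on 4 of 4 wild-type arrays.

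Cyp7b1 adds a hydroxyl group to the ring of oxysterols, which leads them towards bile acids, and to the ring of some neurosteroids. Its signal was 0.20, 0.25, 0.11 and 0.44 in Npc1-/- replicates 1 to 4, and -0.04, -0.11, 0.10 and -0.11 in wild-type replicates 1 to 4. The groups did not overlap, but Npc1-/- replicate 3 and wild-type replicate 3 were nearly level. The means were 0.25 ± 0.14 in Npc1-/- and -0.04 ± 0.10 in wild-type cerebella (SD, n = 4 each). The log2 difference of 0.29 ± 0.10 (SE), or 1.22-fold, did not pass the threshold (limma adjusted p = 0.511), and its 95% confidence interval ran from 0.05 to 0.52. Within slides 2, 3 and 4 the difference was 0.15, 0.43 and 0.15, so it kept its sign on each slide that held both genotypes. Over the alternatives that gave a test, the difference ran from 0.18 to 0.34 and its adjusted p from 0.127 to 0.886.

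Hsd3b7, the dehydrogenase that acts next on ring-hydroxylated sterols, gave 1.56, 1.60, 1.58 and 1.23 in Npc1-/- replicates 1 to 4, and 1.44, 1.40, 1.83 and 1.47 in wild-type replicates 1 to 4. In each genotype 3 arrays lay close together and 1 stood apart, Npc1-/- replicate 4 below and wild-type replicate 3 above, and the groups overlapped. The means were 1.49 ± 0.17 in Npc1-/- and 1.54 ± 0.20 in wild-type cerebella (SD, n = 4 each). The log2 difference was -0.04 ± 0.13 (SE, limma adjusted p = 0.923), with a 95% confidence interval from -0.35 to 0.26. Both arrays that stood apart are among the 3 on the positive side of the first principal component, and without those 3 the difference was 0.16.

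Soat1, also known as acyl-CoA:cholesterol acyltransferase, makes the cholesteryl esters of lipid droplets. On its brightest probe, A_51_P391754, at chr1:156392448-156392507 on the minus strand of mm7, the signal was -0.04, -0.14, -0.28 and -0.03 in Npc1-/- replicates 1 to 4, and -0.67, -0.57, -0.38 and -0.42 in wild-type replicates 1 to 4. All Npc1-/- arrays lay above all wild-type arrays, with Npc1-/- replicate 3 and wild-type replicate 3 nearest to each other. The means were -0.12 ± 0.12 in Npc1-/- and -0.51 ± 0.13 in wild-type cerebella (SD, n = 4 each). The log2 difference was 0.39 ± 0.10 (SE), or 1.31-fold, with a 95% confidence interval from 0.15 to 0.62. It missed the threshold after adjustment over all genes (limma adjusted p = 0.260), at rank 378 of 17983 by p. Within slides 2, 3 and 4 the difference was 0.24, 0.53 and 0.39, and without the 3 arrays on the positive side of the first principal component it was 0.46.

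Another Soat1 probe allowed the same comparison on a different stretch of the transcript. A_52_P642167, at chr1:156391237-156391296 on the minus strand, gave -3.39, -3.43, -3.56 and -3.26 in Npc1-/- replicates 1 to 4, and -3.81, -3.63, -3.94 and -3.81 in wild-type replicates 1 to 4. Its groups did not overlap either, and the log2 difference was again 0.39 (limma over 27164 probes, adjusted p = 0.344), although wild-type replicate 2 was not well above background. One more chromosome 1 probe gave -4.14, -3.97, -4.13 and -4.17 in Npc1-/- and -4.53, -4.68, -4.30 and -4.08 in wild-type cerebella. On it wild-type replicate 4 lay above 3 of the 4 Npc1-/- arrays, so the groups overlapped, and the log2 difference was 0.30 (limma adjusted p = 0.812). These probes were read on the same arrays and RNA, so they are not separate replicates.

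A further probe under the symbol Soat1, A_51_P111612, is placed by the files on another chromosome, at chr7:64592747-64592806 on the minus strand of mm7, 7810 bases from a probe of Arrdc4 on the same strand. Its values were -2.68, -2.30, -2.19 and -2.33 in Npc1-/- replicates 1 to 4, and -2.44, -3.19, -2.37 and -2.15 in wild-type replicates 1 to 4. Wild-type replicate 2 was the lowest array and wild-type replicate 4 the highest, and the log2 difference was 0.16 (limma adjusted p = 0.857). Which transcript this probe reads was not determined. With all 4 probes averaged, the Soat1 difference was 0.31 (limma adjusted p = 0.502). Over all probes of the 6 genes, limma called 0 of 9, against 0.523% of the 27164 probes tested. The genotypes did not overlap, with Npc1-/- higher, on 4 of the 9 probes, against 2.54% of all probes, and 2 of the 4 probes read Soat1 and 1 of them read Ch25h.

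**Figure D2:**
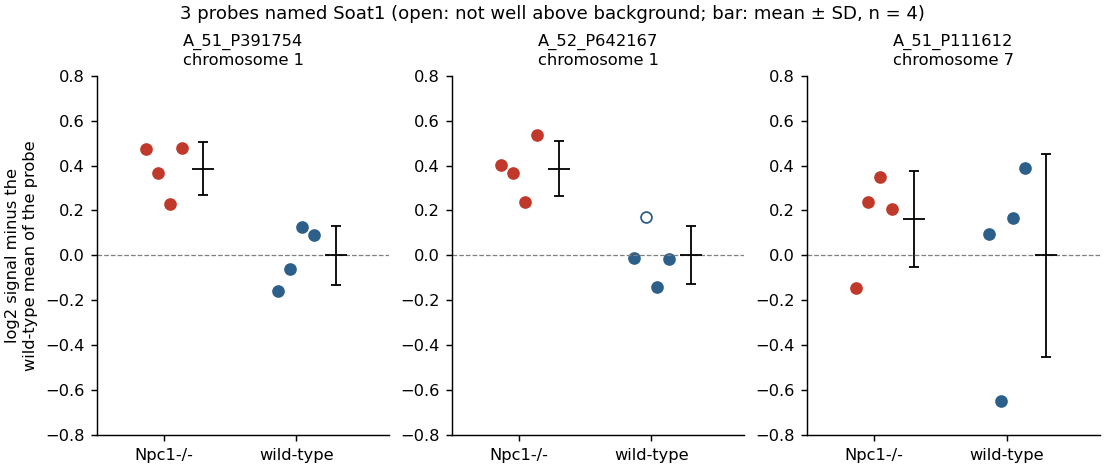
3 of the probes named Soat1, each array's log2 signal minus the probe's wild-type mean (vertical axis, log2 units), with Npc1-/- left of wild-type, open points not well above background and bars the mean ± SD of 4 arrays. The genotype means of the 2 chromosome 1 probes drawn differ by 0.39 and those of the chromosome 7 probe by 0.16 with overlapping groups; the other chromosome 1 probe, with overlapping groups, is not drawn.

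**Figure D3:**
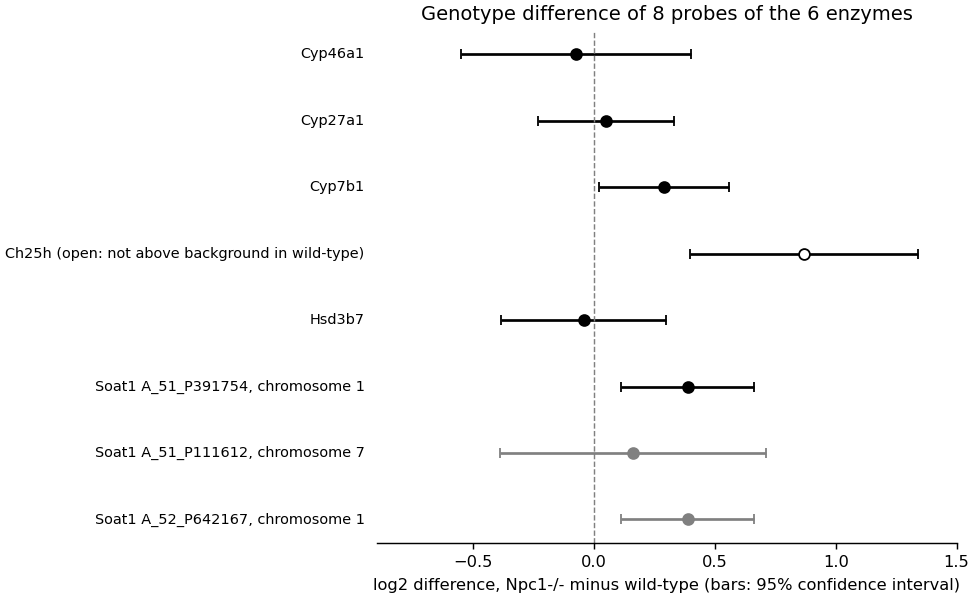
Log2 difference, Npc1-/- minus wild-type, of 8 of the 9 probes (points) with its 95% confidence interval (bars) from the limma fit over all 41174 probes without a filter; black marks the probe used for its gene, grey the other Soat1 probes, and the open point Ch25h, whose wild-type arrays were not above background. The intervals of Cyp7b1, Ch25h and 2 Soat1 probes lie to the right of 0 before any adjustment, and the other 4 cross it.

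Start regions are shown for Cyp46a1, whose genotypes overlapped, and for Ch25h and Soat1. The recorded values of Ch25h and of Soat1 did not overlap between genotypes on the probe used for the gene. No wild-type array measured Ch25h well above background. RefSeq promoters of assembly GRCm38.p6, from 250 bases before to 50 after the gene start, matched 5 of the 6 genes by symbol, and Cyp7b1 was the one without. Capitals mark matches on either strand to any of 4 motifs. The GC box was searched as GGGCGG. The box bound by the factor NF-Y was searched as CCAAT. The TATA box was searched as TATAAA. The cAMP response element was searched as TGACGTCA. No match overlapped a match to another motif. The Cyp46a1 window is chr12:108334066-108334365 on the plus strand, the Ch25h window chr19:34475099-34475398 on the minus strand and the Soat1 window chr1:156474279-156474578 on the minus strand, each written in the direction of transcription.
Cyp46a1: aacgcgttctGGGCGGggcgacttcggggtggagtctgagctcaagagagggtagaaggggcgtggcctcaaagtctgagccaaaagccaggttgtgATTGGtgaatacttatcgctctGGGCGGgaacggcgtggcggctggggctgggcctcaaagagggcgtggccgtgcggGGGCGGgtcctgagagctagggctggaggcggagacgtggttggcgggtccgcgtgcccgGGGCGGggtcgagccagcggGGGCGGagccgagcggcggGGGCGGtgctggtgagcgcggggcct
Ch25h: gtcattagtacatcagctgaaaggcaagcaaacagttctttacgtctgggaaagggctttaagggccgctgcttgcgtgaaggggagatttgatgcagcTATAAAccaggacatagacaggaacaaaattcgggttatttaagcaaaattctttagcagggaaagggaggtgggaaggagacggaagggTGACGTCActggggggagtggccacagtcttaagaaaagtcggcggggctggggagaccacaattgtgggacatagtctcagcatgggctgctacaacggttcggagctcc
Soat1: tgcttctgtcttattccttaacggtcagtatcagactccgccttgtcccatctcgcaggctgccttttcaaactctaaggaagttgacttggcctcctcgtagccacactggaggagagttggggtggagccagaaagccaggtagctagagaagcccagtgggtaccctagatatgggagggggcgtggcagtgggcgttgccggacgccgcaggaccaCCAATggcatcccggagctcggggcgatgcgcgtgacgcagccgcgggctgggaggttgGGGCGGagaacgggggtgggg
The Cyp46a1 window held 6 GC boxes, 1 CCAAT and 31 CpG, with a G+C share of 70.3%, above 91.4% of all 32851 promoters of the table. The Ch25h window held 0 GC boxes, 1 TATAAA and 1 TGACGTCA, with 10 CpG and a G+C share of 51.0%. The Soat1 window held 1 GC box and 1 CCAAT, with 19 CpG and a G+C share of 62.0%. Over all promoters, 35.7% held at least 1 GC box, 37.4% a CCAAT, 13.6% a TATAAA and 1.79% a TGACGTCA, and the median promoter had 7 CpG and a G+C share of 52.7%. A match describes these letters and marks no bound factor.

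Genes around the 6 enzymes were taken from lists of the same pathway. Of the 41 genes of these lists that were tested, limma called 0 at an adjusted p under 0.05, against 0.767% of all genes tested. An unadjusted limma p under 0.05 was found for 2 of the 41, against 7.4% of all genes tested. The bile acid route had 11 of 18 genes tested, with a median log2 difference of -0.16 and a range from -0.58 to 0.39, where all genes tested had a median of -0.02. The median of this list was -0.08 with normexp background correction and -0.02 without the 3 arrays on the positive side of the first principal component. Cyp7a1, the hydroxylase that starts bile acid synthesis in liver, was not well above background on any array with either of its 2 probes. Cyp39a1, which acts on the product of Cyp46a1, had a difference of 0.18 ± 0.15 (SE, limma adjusted p = 0.752). Akr1c14, a hydroxysteroid dehydrogenase, averaged -4.16 ± 0.11 in Npc1-/- and -3.67 ± 0.41 in wild-type cerebella (SD, n = 4 each), a difference of -0.49 (limma adjusted p = 0.590). Slc27a2, a fatty acid and bile acid ligase, had 0.39, Hsd11b1, which reduces glucocorticoids and some oxysterols, -0.29, and the drug and steroid hydroxylase Cyp3a11 -0.58, with overlapping groups for all 3. For Cyp3a11 wild-type replicate 2 was at -3.09 and the other wild-type arrays at -5.49 to -4.96, and without it the difference was -0.064. Without wild-type replicate 3 the difference was -0.30 for Akr1c14 and -0.10 for Hsd11b1. For Cyp39a1 it was 0.084 without Npc1-/- replicate 2 and 0.28 without wild-type replicate 2.

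The P450s need electrons from partner proteins, the microsomal reductase Por and, in mitochondria, Fdxr and Fdx1. Of the 5 partners tested none passed (limma, 0 called), and their median log2 difference was -0.03. Por had -0.03 ± 0.10, Fdxr 0.01 ± 0.08, Fdx1 -0.04 ± 0.14 and Cyb5a, a cytochrome that lends electrons to microsomal enzymes, -0.20 ± 0.13 (log2 difference ± SE). Without wild-type replicate 3, Cyb5a had -0.085 and Fdx1 0.090. Por had 0.020 without Npc1-/- replicate 1, and Fdxr -0.031 without wild-type replicate 4. With quantile normalization the median of this list was 0.03, so it has no settled direction.

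Genes that make or cleave sterol esters other than Soat1 had 5 of 6 members tested and 0 called by limma, with a median log2 difference of -0.09. Lipa, the lysosomal acid lipase that frees cholesterol from the esters of lipoproteins, was -0.56, -0.85, -0.82 and -0.91 in Npc1-/- replicates 1 to 4, and -1.11, -0.95, -1.31 and -0.97 in wild-type replicates 1 to 4. Its groups did not overlap, with the higher values in Npc1-/-. This was so for 1 of the 41 genes tested in the related lists, against 2.96% of all genes in that direction. The log2 difference of Lipa was 0.30 ± 0.12 (SE), which did not pass (limma adjusted p = 0.605). Within slides 2, 3 and 4 it was 0.46, 0.22 and 0.29. Nceh1, a neutral ester hydrolase, had -0.12, Lipe, hormone-sensitive lipase, 0.18 and Lcat, which esterifies cholesterol on lipoproteins, -0.23, all with overlapping groups. Without wild-type replicate 3 these were -0.074 for Nceh1, -0.016 for Lipe and -0.079 for Lcat, while Lipe had 0.40 without wild-type replicate 2. Soat2, the other acyltransferase, was well above background on 1 of 8 arrays, a wild-type one, and was not tested.

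Receptors and binding proteins of oxysterols had 20 of 20 genes tested, of which limma called 0 and 6 had a positive difference, with a median of -0.06. The largest differences in size were -0.50 for Gpr183, a receptor of immune cells for dihydroxylated oxysterols, -0.26 for Insig1, which holds the sterol sensor in the endoplasmic reticulum, -0.21 for Osbpl8 and -0.20 for Osbp2, both sterol and lipid transfer proteins. All 4 overlapped between genotypes, and their adjusted p was 0.752 for each (limma). Without wild-type replicate 3 the difference was -0.11 for Osbpl8 and -0.095 for Osbp2, and without Npc1-/- replicate 4 it was -0.41 for Insig1. With 1 array left out Gpr183 had -0.76 to -0.24. Its signal ran from -5.03 to -3.47 in Npc1-/- and from -4.51 to -3.14 in wild-type cerebella.

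**Figure D4:**
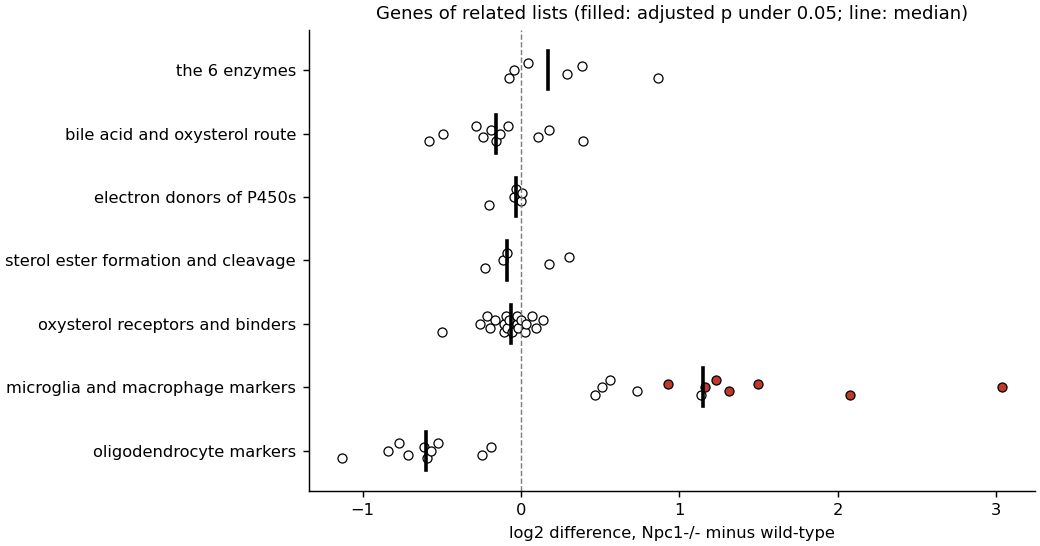
Log2 difference, Npc1-/- minus wild-type (horizontal axis), of each tested gene of the 6 enzymes, 4 related lists and 2 cell type marker lists; points are genes, filled at an adjusted p under 0.05, and the thick line is the median of the list. The 4 related lists lie around 0 with medians from -0.16 to -0.03 and 0 filled points, while 7 of 12 microglia and macrophage markers are filled.

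Markers of other cell types moved with genotype in the same RNA. Of 12 markers of microglia and macrophages, cells known to express Ch25h, Soat1 and Lipa, 7 rose (limma adjusted p under 0.05, against 0.734% of all genes in that direction), and 12 of 12 had a positive difference, with a median of 1.15 log2 units. Their mean log2 signal ran from -0.12 to 0.24 on Npc1-/- arrays and from -1.45 to -1.10 on wild-type arrays. With slides as blocks 4 of the 12 rose, and 3 of the 12 without the 3 arrays on the positive side of the first principal component. Of 10 oligodendrocyte markers 0 were called by limma, all 10 had a negative difference with a median of -0.60, and the genotypes did not overlap for 7, against 1.95% of all genes in that direction. Among the alternatives, 6 of the 10 were called lower with array weights and 2 with normexp. With scan day as a block 1 was called, as was 1 without wild-type replicate 1, and 0 in each other alternative. Their mean log2 signal ran from 3.08 to 3.48 on Npc1-/- arrays and from 3.66 to 4.16 on wild-type arrays.

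The other marker lists had smaller medians in size. Of 5 meningeal fibroblast markers limma called 0, and 4 of 5 had a positive difference, with a median of 0.46, the largest in size of these other lists. Their mean log2 signal ran from 0.86 to 1.13 on Npc1-/- arrays and from 0.53 to 0.78 on wild-type arrays. The neuronal lists, whose Purkinje cells express Cyp46a1, had 0 of 8 Purkinje and 0 of 7 granule markers called by limma, with medians of -0.22 and -0.26. Astrocyte and Bergmann glia markers had a median of 0.03, endothelial markers -0.03 and choroid plexus markers 0.02, with 0 called by limma in each. Within the astrocyte list Gfap, an intermediate filament protein named here after its values were seen, averaged 1.98 ± 0.18 in Npc1-/- and 0.90 ± 0.38 in wild-type cerebella (SD, n = 4 each). Its groups did not overlap, and the log2 difference of 1.08 missed the threshold (limma adjusted p = 0.0516). It or another gene of that list was called, 1 of 10, with normexp, the filter on all 8 arrays, array weights and without wild-type replicate 2. The part of any of these cell types in the values of Soat1, Ch25h or Cyp7b1 was not tested.

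**Figure D5:**
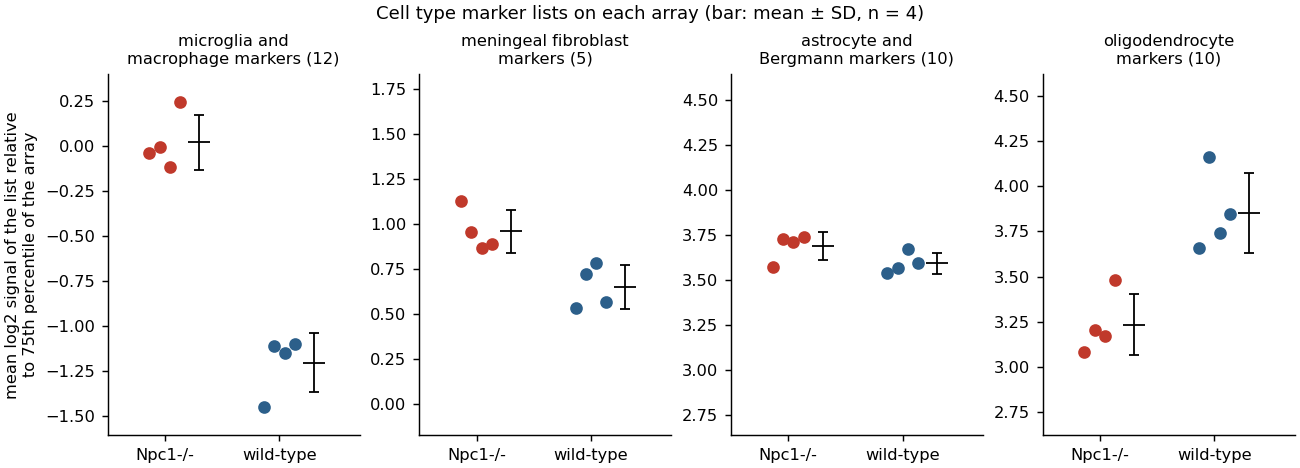
Mean log2 signal of 4 cell type marker lists on each array, as log2 units above or below its 75th percentile (number of genes in brackets); points are arrays, Npc1-/- left of wild-type, and bars are the mean ± SD of 4 arrays. The microglia and macrophage list lies at -0.12 to 0.24 in Npc1-/- and at -1.45 to -1.10 in wild-type cerebella, and the oligodendrocyte list at 3.08 to 3.48 in Npc1-/- and at 3.66 to 4.16 in wild-type cerebella.

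The enzymes were also compared by how their signals varied from array to array once each genotype's mean was removed, as Pearson's r over 8 arrays. These values describe arrays that share slides and the first principal component, and among so many genes the closest are bound to be close over 8 arrays. Among the 6 enzymes, Cyp46a1 and Cyp27a1 had an r of 0.76 and Cyp27a1 and Soat1 one of 0.74, whereas Ch25h and Cyp27a1 had -0.69 and Cyp46a1 and Hsd3b7 -0.64. The 3 named genes nearest to Cyp46a1 were Col4a4, Grm8 and Evi5l (r = 0.991, 0.990 and 0.988). For Cyp27a1 they were Steap1, Cracr2b and Clu (0.988, 0.986 and 0.986). Those of Cyp7b1 were Zfp949, Ess2 and Rab23 (0.984, 0.961 and 0.950), and those of Ch25h were Pus10, Tmem40 and Pfkfb4 (0.966, 0.966 and 0.955). No wild-type array measured Ch25h well above background. Each r of Ch25h, also that with Cyp27a1, thus rests in part on values without a measured level. Hsd3b7 was nearest to Ephb2, Strn and Scgb3a1 (0.966, 0.958 and 0.955), and Soat1 to Ctnnb1, Ptdss1 and Sugct (0.982, 0.981 and 0.981).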

How the data were processed

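RNA of 8 cerebella was hybridised to 1-colour Agilent arrays (500 ng, Cy3, per the labels' protocols), 4 per genotype, grouped by sample title. The authors deposited intensity values as scanner output. The submitters' processing notes name Agilent Feature Extraction 9.5. Per the file headers, background subtraction and detrending were done array by array, without scaling from one array to another. A table of Illumina bead array intensities was not used here, since its probe numbers carry no gene names.

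The processed signals were divided by the 75th percentile of the non-control spots of their array and put on a log2 scale. Outlier spots (74 to 115 per array) were set to missing, repeated spots were averaged, and saturation affected 0 spots. A filter kept the 27164 of 41174 probes that 4 or more of the 8 arrays measured well above background, and the probe with the highest mean signal stood for each of 17983 genes. Names were updated through RefSeq GRCm38.p6. The test was limma's moderated one (version 3.58.1, R 4.3.3; lmFit, eBayes, two-sided, no covariate), Benjamini-Hochberg adjusted over all genes or probes at a threshold of 0.05, and the fit was tested on simulated data. Plots used matplotlib. The sequence of 1 Soat1 probe is not reported here. The p-values reflect variation among these 8 mice, which the labels do not tie to litters.

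Alternatives were normexp (offset 50) with quantile normalization, quantile or median scaling, other filters, the mean of a gene's probes, slide, scan day or replicate blocks, array weights and leaving out each array. Members and lists were chosen with earlier results of these data known. Named genes were all members, with 8 of their 9 probes by name, the members of 4 pathway lists with the largest differences up to 4 per list, 6 genes of adjoining reactions, and the 3 genes nearest to each member in array-to-array variation. The labels do not say that replicate numbers pair mice, so the reported fit used no pairing. Same-numbered arrays deviated with r of 0.15, 0.038, -0.45 and 0.20, too few values to decide whether the mice were paired.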

Additional observations from a re-analysis of the deposited data

Results flagged for a closer look

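In both genotypes 1 array stood apart from the other 3 for Hsd3b7. Npc1-/- replicate 4 was at 1.23, with the nearest Npc1-/- array at 1.56, a gap of 0.884 of the range of the group. Wild-type replicate 3 was at 1.83, with the nearest wild-type array at 1.47, a gap of 0.836 of the range. Both gaps exceed Dixon's critical value for 4 samples. In all, 52 groups of 4 arrays were looked at, and chance flags about 1 in 20 groups.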

How the results depend on the processing

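None of the enzymes tested passed the threshold under any alternative run with a test, with 0 of 5 or 0 of 6 genes and 0 of 6 to 0 of 9 probes called. Ch25h was tested in 13 of them and fell below the filter in the others. Cyp7b1 and Soat1 stayed higher in Npc1-/- in each of 19 alternatives. Some of these cannot change a gene's difference, such as the replicate block and, where the same probe is kept, the other filters. The number of genes called was 138 in the reported fit and 87 with quantile normalization, 75 with median scaling, 59 without a filter, 88 with the filter on all 8 arrays, 38 with slide as a block, 27 with the replicate block, 309 with array weights and 55 to 148 with 1 array left out. The number of probes called was 142, and 92, 89, 62, 85, 36, 26 and 291 under the same alternatives, 94 with scan day as a block and 57 to 148 with 1 array left out. An alternative added after seeing the data, without the 3 arrays on the positive side of the first principal component, called 15 genes and 10 probes and gave 0.16 for Hsd3b7 and -0.26 for Cyp46a1. The replicate block holds 1 array of each genotype per replicate number, so it cannot change a log2 difference between complete groups. Those of Soat1 (0.39, limma adjusted p = 0.554) and Cyp7b1 (0.29, limma adjusted p = 0.753) stayed as they were, and no member's call changed. Cyp46a1 ran from -0.21 to 0.079 with 1 array left out, above 0 without Npc1-/- replicate 3 (0.079) and wild-type replicate 2 (0.015). Cyp27a1 was -0.011 with quantile normalization, -0.061 with median scaling and -0.11 within slide 4. Hsd3b7 was 0.0067 with quantile normalization, 0.0029 with scan day as a block, 0.049 with array weights and -0.090 to 0.055 with 1 array left out, above 0 without Npc1-/- replicate 4 (0.042) or wild-type replicate 3 (0.055), and -0.23 within slide 2. Within slides, Cyp7b1 was 0.15, 0.43 and 0.15, and Soat1 0.24 in slide 2 and 0.53 in slide 3. For Ch25h they were 0.45 in slide 2 and 1.43 in slide 4, against wild-type values below background, so they are no measured differences. Median scaling moved the median of all genes by -0.11, from which members are to be read there: Soat1 was 0.28 and Cyp7b1 0.18. Values of related genes with 1 array left out were also added after seeing the data. The cause of these moves was not tested, beyond the smaller number of arrays or genes in some. Ch25h is limited by dim signal, since wild-type levels below background have no measured value.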
